A study of Mus musculus with 55 samples.

Results

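S100a8, S100a9, Ngp, Camp, Ltf, Lcn2, Chil3 and Retnlg, 8 genes that neutrophils use late in their differentiation, were followed through sorted stem and progenitor populations of mouse bone marrow. They were chosen by symbol, and all 8 were found, each as 1 of the 55421 genes of the count table. The table holds 46 bulk RNA-seq libraries from bone marrow, with about 200 sorted cells per library by the labels, of LT-HSC (long-term hematopoietic stem cells), ST-HSC (short-term stem cells), CMP (common myeloid progenitors), GMP (granulocyte-macrophage progenitors), MEP (megakaryocyte-erythroid progenitors) and CLP (common lymphoid progenitors). Of these, 22 libraries are labelled WT and 24 carry the label of the Tet2 knockout (KO here), with 4 libraries per population and genotype except 3 in WT LT-HSC and 3 in WT ST-HSC. The knockout is described in the study's methods as Tet2 f/f with Mx1-Cre, a Cre under an interferon-inducible promoter that also acts outside blood cells, which was induced in young mice with poly(I:C) months before the marrow was taken. Whether the WT mice carried the f/f alleles or had poly(I:C) is not given in the sources used here. All populations were sorted as lineage-negative and cKit-positive, with Gr1, a marker of maturing granulocytes, in the lineage cocktail. The question asked of the 8 genes was in which of these populations, and in which libraries, their RNA was measured, beside genes of earlier and later steps of the same lineage.

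Neutrophils are made from GMPs through promyelocytes, which fill primary granules with Mpo and serine proteases, and through myelocytes and later stages, which fill secondary and tertiary granules. S100a8 and S100a9 encode the subunits of calprotectin, the most abundant cytosolic protein of neutrophils, which sequesters metal ions. Ngp (neutrophilic granule protein), Camp (the cathelicidin antimicrobial peptide), Ltf (lactoferrin, which binds iron) and Lcn2 (lipocalin 2, which binds bacterial siderophores) are cargo of the secondary granules, Chil3 is a chitinase-like secreted protein, and Retnlg is a resistin-like cytokine of mature neutrophils.

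On the mm10 assembly, with the GENCODE vM21 annotation, S100a8 (ENSMUSG00000056054) lies at chr3:90668978-90670035 on the plus strand and S100a9 (ENSMUSG00000056071) at chr3:90692632-90695721 on the minus strand, 22596 bases apart. Chil3 (ENSMUSG00000040809) lies further along the same chromosome, at chr3:106147554-106167564. Camp (ENSMUSG00000038357, chr9:109847379-109849617), Ngp (ENSMUSG00000032484, chr9:110419747-110423012) and Ltf (ENSMUSG00000032496, chr9:111019271-111042767) lie near each other, with 570129 bases between Camp and Ngp and 596258 between Ngp and Ltf. Lcn2 (ENSMUSG00000026822) is at chr2:32384633-32388252 and Retnlg (ENSMUSG00000022651) at chr16:48872621-48874496. No other annotated gene overlaps any of the 8. The relatives Chil4, Retnla and Retnlb, whose reads could be exchanged with those of Chil3 and Retnlg, had no counts in any of these libraries.

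Bases before the start of S100a8 and S100a9, the pair that parted between populations, and of Ngp, which was found only in libraries that also held S100a9, are printed here 5′ to 3′ from RefSeq (GRCm38.p6); the table matched all 8 genes. RefSeq places the start of S100a8 93 bases and that of Ngp 61 bases inside the GENCODE gene, and both sources give the same start for S100a9. Each stretch begins 250 bases before the RefSeq start and stops before the first GENCODE exon. For Lcn2, whose RefSeq start lies 513 bases inside its GENCODE gene, no such stretch was left. Capitals mark 3 motifs searched on both strands, TATAAA, TTGCNNAA (letters of a C/EBP site) and GAGGAA (letters of a PU.1 site).
S100a8, chr3:90668821-90668977, plus strand: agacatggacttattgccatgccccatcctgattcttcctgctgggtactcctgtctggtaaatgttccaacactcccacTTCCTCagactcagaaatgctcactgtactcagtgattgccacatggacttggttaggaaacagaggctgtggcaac
S100a9, chr3:90695722-90695971, minus strand: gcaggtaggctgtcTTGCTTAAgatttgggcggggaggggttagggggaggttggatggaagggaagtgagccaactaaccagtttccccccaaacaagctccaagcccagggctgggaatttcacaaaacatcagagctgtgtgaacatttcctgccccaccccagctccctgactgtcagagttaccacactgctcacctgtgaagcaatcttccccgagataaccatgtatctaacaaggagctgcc
Ngp, chr9:110419558-110419746, plus strand: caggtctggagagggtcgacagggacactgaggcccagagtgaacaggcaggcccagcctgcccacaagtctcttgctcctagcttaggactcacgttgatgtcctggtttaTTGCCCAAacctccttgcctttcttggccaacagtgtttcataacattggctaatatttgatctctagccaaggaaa

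In the windows of 300 bases from 250 bases before to 50 after the RefSeq start, TATAAA was found in S100a8, S100a9 and Chil3, against 13.6% of 32851 promoters. In S100a9 it begins at the annotated start, beyond the stretch printed. TTGCNNAA was found in S100a9, Ngp, Ltf, Lcn2 and Retnlg, against 10.8% of promoters, and GAGGAA in S100a8, Ltf and Lcn2, against 28.3%. In S100a8 a second TTCCTC, which is GAGGAA on the other strand, is followed directly by TATAAA, 30 bases before the RefSeq start and past the stretch printed. The letters do not group the genes as their levels do: S100a8 and Lcn2, the members that stood out in GMPs, share only GAGGAA. A match is a description of the sequence and shows no binding.

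Library totals ran from 50458473 to 102148079 counts (median 70118186.5), with 13754 to 20964 genes detected. Levels are given as CPM, counts relative to library sizes scaled by TMM, and a library with 3 counts or fewer was taken as at the floor. Tet2 itself gave no check of the labels. In GMPs it was at 37.6 ± 3.44 CPM in WT and 47.7 ± 9.16 in KO (SD, n = 4 each), and the genotypes overlapped in all 6 populations. Counts per gene cannot resolve a deleted part of it, so groups go by their labels. The CLP libraries stand apart from the others. All 8 held Il7r, the gene of their gate's CD127, at 231 to 1120 CPM, but Ighm reached 277425 and Igkc 261849 CPM, and 12 B cell genes summed to between 1028 and 616541. Of genes that mark other gates, Fcgr3, of CD16, was at 149 to 295 CPM in GMPs and at most 0.956 in MEPs, and Hlf, a stem cell factor, was at 21.0 to 215 in LT-HSCs and at most 8.58 in GMPs.

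The late neutrophil genes were low throughout, and their highest sums were in GMPs, though the highest single values of S100a9, Camp, Ngp and Ltf lay outside GMPs, in ST-HSC libraries. Summed over the 8 genes, GMP libraries held 9.61 to 71.5 CPM, LT-HSC libraries 0.105 to 8.76, ST-HSC libraries 0.903 to 9.96, CMP libraries 0.868 to 4.80, MEP libraries 0 to 1.58 and CLP libraries 0 to 16.1. The lowest KO GMP library, at 9.61, was below the highest ST-HSC and CLP libraries. S100a8 was above the floor in 40 of 46 libraries, S100a9 in 29, Camp in 17, Lcn2 in 16, Chil3 in 13, Ngp in 11, Retnlg in 6 and Ltf in 2. In bulk RNA, fewer cells that carry a transcript and less of it per cell cannot be told apart, and none of these levels says how many of the sorted cells held the RNA.

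**Figure D1:**
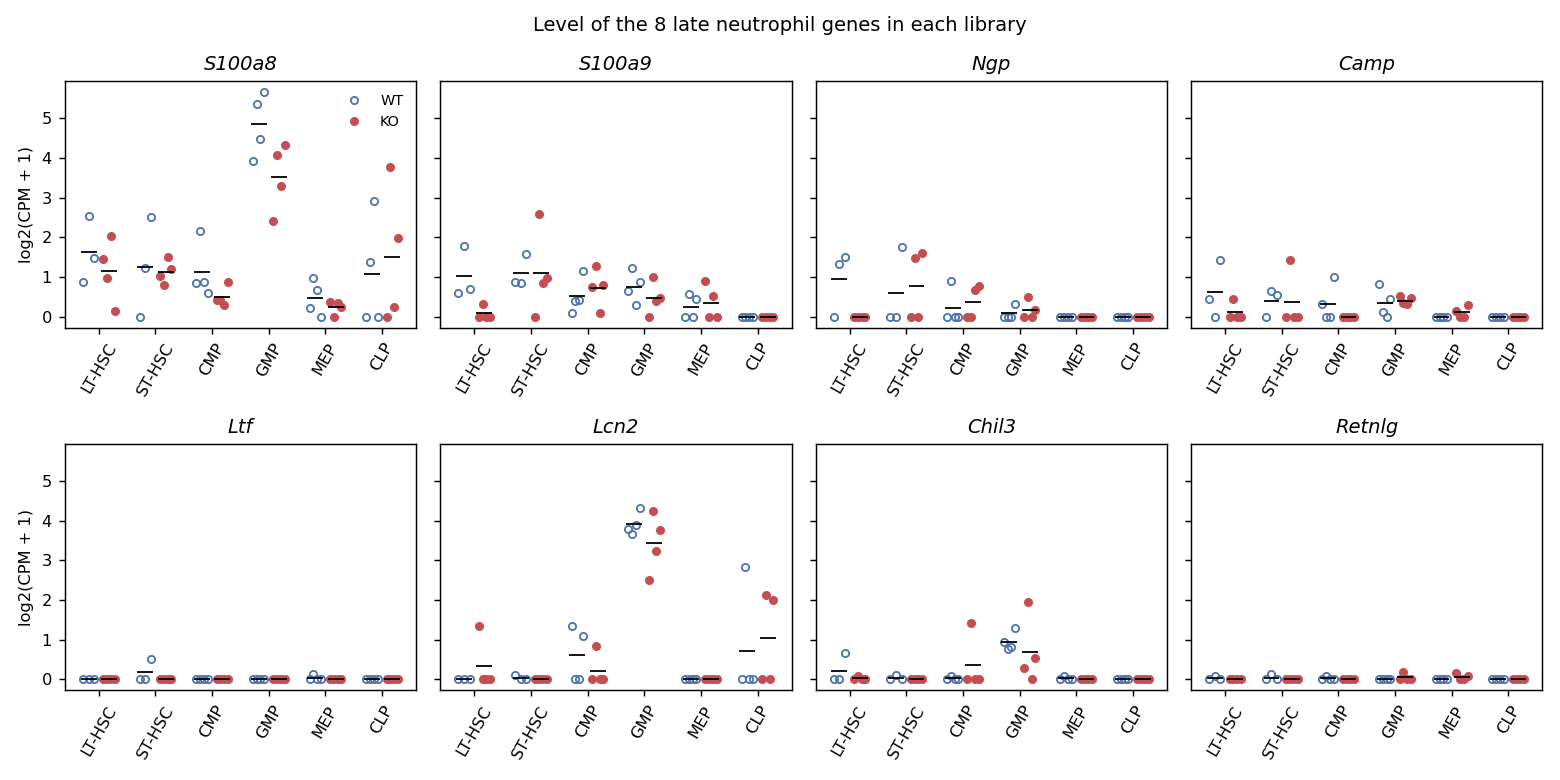
Level of each of the 8 genes as log2(CPM + 1) by population, with 1 point per library (open, WT; filled, KO) and bars for group means. S100a8 and Lcn2 have their highest group means in GMPs in both genotypes, though KO GMP 2 lies below single CLP libraries for both genes, while the ranges of S100a9 overlap from LT-HSC to MEP and all CLP libraries are at 0, and Ltf and Retnlg stay near 0.

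S100a8 was the most abundant member. WT GMP libraries 2, 3, 4 and 5, numbered as in their titles, held 14.3, 40.4, 21.5 and 49.5 CPM, and KO GMP libraries 2, 3, 4 and 5 held 4.31, 15.9, 8.75 and 19.1. No other library of the myeloid, erythroid or stem cell gates reached 5 CPM. WT LT-HSC libraries 2, 3 and 5 had 0.826, 4.79 and 1.79 CPM, and KO LT-HSC libraries 1.75, 0.952, 3.06 and 0.105. WT ST-HSC libraries had 0, 1.32 and 4.72, and KO ST-HSC libraries 1.03, 0.744, 1.82 and 1.28. Among the stem cell libraries the highest S100a8 values were those of WT LT-HSC 3 and WT ST-HSC 5, and both genotypes overlapped. WT CMPs had 0.797, 3.50, 0.842 and 0.504 CPM and KO CMPs 0.326, 0.334, 0.220 and 0.826. WT MEPs had 0.160, 0.952, 0.576 and 0 and KO MEPs 0.297, 0, 0.257 and 0.189, the lowest levels of a population other than the CLP libraries at 0. CLPs were the most uneven: WT libraries had 0, 1.57, 6.57 and 0 CPM and KO libraries 0, 12.7, 0.178 and 2.94.

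By mean, S100a8 stood in the order GMP (21.7 ± 15.5 CPM, SD, n = 8, both genotypes), CLP (2.99 ± 4.53, n = 8), LT-HSC (1.90 ± 1.58, n = 7), ST-HSC (1.56 ± 1.51, n = 7), CMP (0.919 ± 1.07, n = 8) and MEP (0.304 ± 0.320, n = 8). The place of CLP rested on KO CLP 3, without which its mean was 1.61 ± 2.46 (n = 7), and its median (0.876) was below those of LT-HSC (1.75) and ST-HSC (1.28). Without WT ST-HSC 5 the ST-HSC mean was 1.03, and without WT CMP 3 the CMP mean was 0.550. Neighbours from CLP down to MEP in this order differed by less than the larger of their SDs. Per kilobase of transcript, the scale on which genes can be set side by side, S100a8 was at 45.3 ± 23.5 CPM per kb in WT GMPs (n = 4), Lcn2 at 5.49 ± 1.25, S100a9 at 1.40 ± 0.894, Chil3 at 0.580 ± 0.206 and Camp at 0.397 ± 0.462. In WT ST-HSCs the order was different, with S100a8 at 2.91 ± 3.51 CPM per kb (n = 3), S100a9 at 2.29 ± 1.30, Ngp at 0.649 ± 1.12 and Camp at 0.448 ± 0.396, with ranges that overlapped.

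Lcn2 was the second member with its highest levels in GMPs. WT GMP libraries held 12.8, 11.8, 13.9 and 19.1 CPM and KO GMP libraries 4.65, 17.8, 8.48 and 12.7. Outside GMPs it was above the floor in 8 of 38 libraries: KO LT-HSC 2 (1.53 CPM), WT ST-HSC 2 (0.0852), WT CMP 2 and 5 (1.55 and 1.14), KO CMP 3 (0.795), WT CLP 3 (6.15) and KO CLP 3 and 5 (3.39 and 2.99). All 8 MEP libraries were at 0, as were all WT LT-HSC and KO ST-HSC libraries. Lcn2 was thus above the floor in every GMP library and in single libraries of other populations.

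Chil3 had a similar pattern at a lower level. WT GMPs held 0.923, 0.690, 0.742 and 1.43 CPM, above every WT library of the other populations. KO GMPs held 0.226, 2.83, 0 and 0.457, a wider range that took in 0. Elsewhere Chil3 was above 0.1 CPM in 2 libraries, WT LT-HSC 5 (0.575) and KO CMP 3 (1.69).

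S100a9 did not follow S100a8. WT GMPs held 0.550, 1.33, 0.224 and 0.820 CPM of S100a9 and KO GMPs 0, 1.01, 0.322 and 0.377, levels within the range of the stem cell libraries. WT LT-HSCs held 0.510, 2.43 and 0.628 and KO LT-HSCs 0, 0.238, 0 and 0. WT ST-HSCs held 0.818, 0.790 and 1.98 and KO ST-HSCs 0, 4.96, 0.810 and 0.965, so that the highest S100a9 level of all 46 libraries was in KO ST-HSC 3. All 3 WT LT-HSC libraries were above all 4 KO ones, while in ST-HSCs the genotypes overlapped. WT CMPs held 0.0591, 0.318, 0.327 and 1.23, KO CMPs 0.680, 1.42, 0.0648 and 0.747, WT MEPs 0, 0.476, 0 and 0.350, and KO MEPs 0.850, 0, 0.423 and 0. No CLP library had a single S100a9 count, though 5 of the 8 had S100a8 above the floor.

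The balance of the RNAs of the calprotectin subunits differed between populations. Per kilobase, mean S100a8 was below mean S100a9 in ST-HSCs (2.25 and 2.82 CPM per kb) and MEPs (0.438 and 0.502), with SDs above these differences, and above it in the other populations. The ratios that follow are of raw counts, not divided by length. Pooled over libraries, 39.2 S100a8 counts were found per S100a9 count in GMPs (43.7 in WT and 30.7 in KO), 3.49 in LT-HSCs, 1.41 in CMPs, 1.19 in ST-HSCs and 1.08 in MEPs. CLPs, with 1453 S100a8 counts and 0 of S100a9, have no ratio. By genotype the ratio was 2.90 in WT and 0.576 in KO CMPs, 1.81 and 0.799 in ST-HSCs, and 2.07 and 0.550 in MEPs. The order of the genotypes turned with 1 library left out in ST-HSCs, where the KO ratio was 2.26 without KO ST-HSC 3, and in GMPs, where it was 49.5 without KO GMP 3. Other single libraries moved a ratio without turning the order: WT ST-HSCs were at 0.983 without library 5, WT CMPs at 1.28 without library 3 and 7.20 without library 5, WT MEPs at 1.32 without library 4 and 3.49 without library 5, and KO MEPs at 1.14 without library 2. In LT-HSCs the ratio was 2.09 in WT and 27.6 in KO, the latter on only 16 S100a9 counts in 1 library (16.8 without KO LT-HSC 2 and 15.4 without KO LT-HSC 4), and without WT LT-HSC 3 the pooled ratio of the population was 6.73. Over both genotypes the ratio was 0.799 without WT CMP 3, 1.96 without KO ST-HSC 3 and 1.77 without KO MEP 2, while in GMPs it was between 33.9 and 44.8 with any 1 library left out (36.4 to 55.2 within WT and 24.1 to 49.5 within KO). These ratios are descriptions of pooled counts, without a test, and were computed after the levels were seen.

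**Figure D2:**
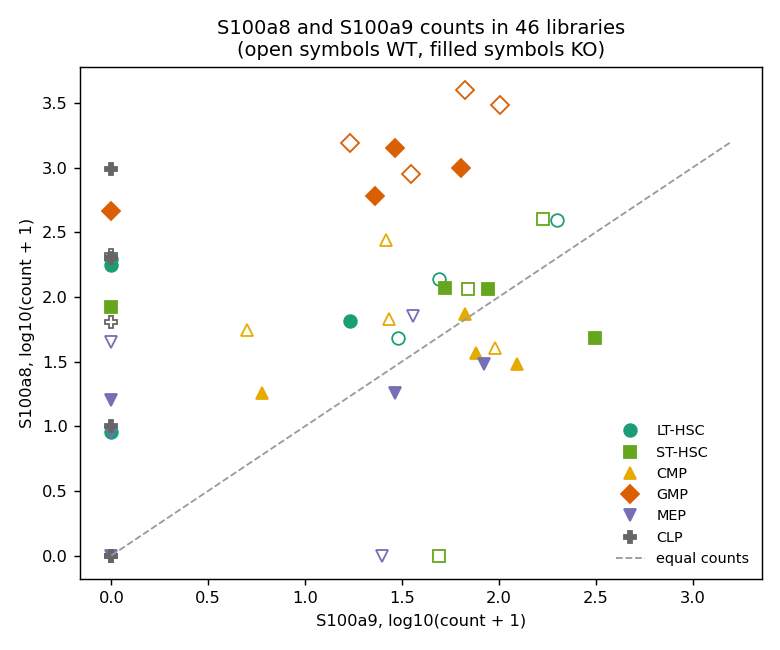
S100a8 against S100a9 as log10(count + 1), with 1 symbol per library (open, WT; filled, KO) and the dashed line for equal counts. GMP libraries lie far above the line, stem cell, CMP and MEP libraries lie on both sides of it or at 0 for a gene, and all CLP libraries are at 0 for S100a9.

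Ngp and Camp, both secondary granule cargo, were found in few libraries and were not highest in GMPs. Ngp was above the floor in WT LT-HSC 3 and 5 (1.49 and 1.82 CPM), WT ST-HSC 5 (2.38), KO ST-HSC 3 and 5 (1.79 and 2.05), WT CMP 3 (0.865), KO CMP 4 and 5 (0.583 and 0.690), WT GMP 5 (0.236) and KO GMP 3 and 5 (0.400 and 0.121). It was at 0 in every MEP, CLP and KO LT-HSC library, and its highest GMP value was below the lowest of the LT-HSC, ST-HSC and CMP libraries that held it. Camp was present in most GMP libraries, at low levels in 7 of 8: WT 0.777, 0.0797, 0 and 0.348 CPM and KO 0.434, 0.256, 0.234 and 0.377. The highest Camp levels were in KO ST-HSC 3 (1.69), WT LT-HSC 5 (1.69) and WT CMP 5 (0.982). Ltf was above the floor in WT ST-HSC 5 (36 counts, 0.426 CPM) and WT MEP 3 (7 counts, 0.0952 CPM), and in no GMP library. Retnlg passed the floor in 6 libraries with at most 12 counts.

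Which members occurred together differed from which were highest. All 11 libraries with Ngp also had S100a8 and S100a9 above the floor, and 15 of the 17 libraries with Camp had S100a9. Of the 16 libraries with Lcn2, 15 had S100a8 and 3 had Ngp (18.8% of the Lcn2 libraries and 27.3% of the 11 Ngp libraries). How often each gene was detected sets much of these counts, as S100a8 was above the floor in 40 of all 46 libraries, S100a9 in 29 and Ngp in 11. Whether any pair occurred together beyond this was not tested. Of all member counts in GMPs (21340), S100a8 made up 60.51%, Lcn2 34.38%, S100a9 1.54%, Camp 0.88% and Ngp 0.25%. In ST-HSCs (2357 counts) S100a8 made up 37.08%, S100a9 31.18%, Ngp 21.17% and Lcn2 0.21%. In CLPs (2160 counts) S100a8 and Lcn2 made up all of them, with 67.27% and 32.73%, and the other 6 members had none. GMP and ST-HSC libraries thus differed in the mixture of members as well as in its sum.

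**Figure D3:**
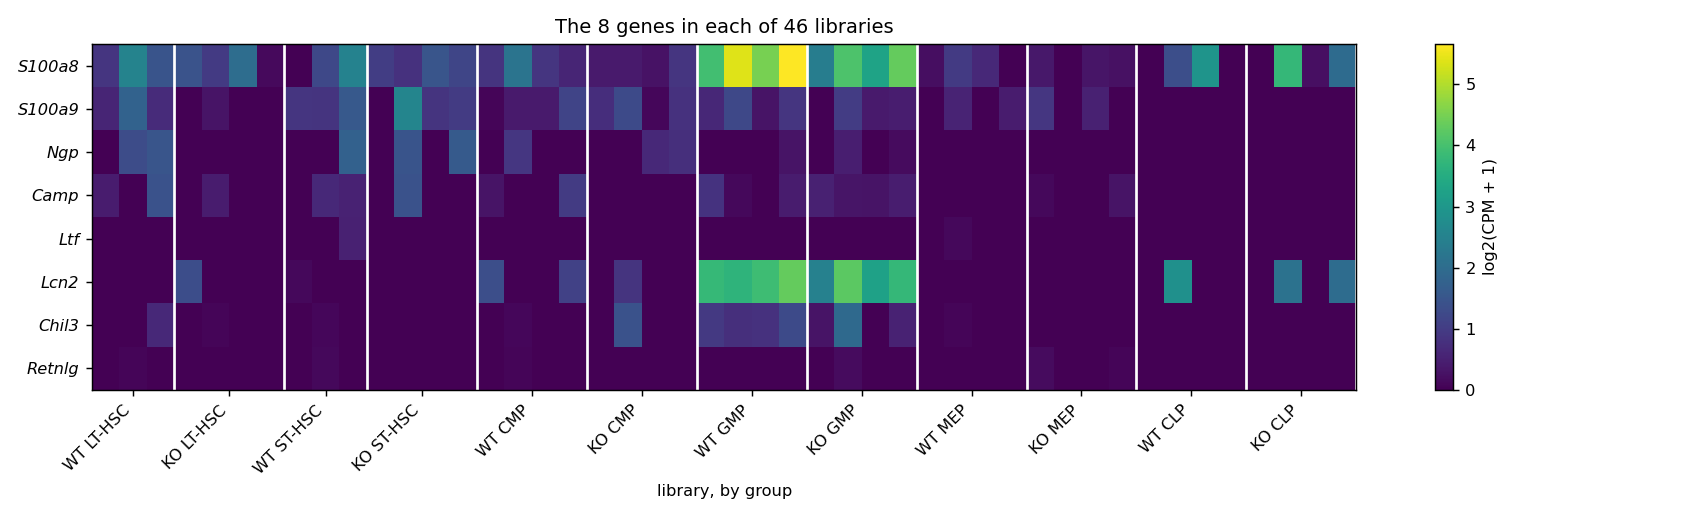
The 8 genes (rows) in each of 46 libraries (columns, in order of replicate number within each group) as log2(CPM + 1). S100a8 and Lcn2 fill the GMP columns, while Ngp appears in scattered columns of LT-HSC, ST-HSC, CMP and GMP and Camp in these and in MEP, and 6 columns hold both.

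Across the 46 libraries, Pearson's r of log2(CPM + 1) was 0.823 between S100a8 and Lcn2, 0.666 between Lcn2 and Chil3 and 0.606 between S100a9 and Ngp. S100a8 and S100a9, the subunits of 1 complex, had an r of 0.182. Over the 38 libraries outside GMPs the S100a8 and Lcn2 value was 0.353, while that of S100a9 and Ngp was 0.634 and that of S100a9 and Camp 0.542. These values are descriptions over libraries that share populations, genotypes and, where many libraries are at 0, their zeros.

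GMPs were set against each other population within a genotype, in 1 fit of the 22 WT and 1 fit of the 24 KO libraries, with edgeR's quasi-likelihood test, and a gene was called at a Benjamini-Hochberg adjusted p under 0.05 over all genes tested and a change of at least 2-fold. Of the 8 members 6 passed the filter on low counts in these fits; Ltf and Retnlg did not. Chil3 in both fits and Camp in KO passed it only through the GMP libraries (checked by filtering the other libraries alone), so that a high GMP level was a condition of their being tested and their results are descriptions. In WT, 4 results of the 5 members that pass without GMPs were called, all higher in GMPs. Lcn2 was called against LT-HSC (at least 336-fold, adjusted p = 0.03997; 9.93% of all genes tested were called higher in this comparison; the call was lost without the filter, adjusted p = 0.055, and in 9 of 22 fits that left out 1 library) and against MEP (at least 313-fold, adjusted p = 0.0202; 10.2% of genes called higher), S100a8 against MEP, and S100a9 against CLP (at least 10.1-fold, adjusted p = 0.0056; 12.9% of genes called higher). Chil3 in WT GMPs was at least 13.05-fold its CLP level, given without a test. Bounds are given against a floor of 3 counts per library where every library of the other group was at 0. They are bounds on counts, not on the RNA in the cells. Lcn2 outside GMPs could be far above 3 counts beside libraries of its group at 0, as in KO LT-HSC 2 (152 counts) and WT CMP 2 (105 counts). S100a8 exceeded its MEP level by a log2 fold change of 6.19 (SE 1.98, adjusted p = 0.0305), a call that was lost in 6 of 22 fits, without WT GMP 3, WT GMP 5 or any 1 WT MEP library (adjusted p = 0.052 to 0.0852). No member was called against ST-HSC or CMP (9.6% and 1.6% of genes called higher), where 1 of the 5 in each had an unadjusted p under 0.05 and DESeq2 called 1 in each.

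In KO, 3 results of the 4 members that pass without GMPs were called, again all higher in GMPs: S100a8 against MEP (log2 fold change 5.89, SE 1.64, adjusted p = 0.0118), Lcn2 against MEP (at least 274-fold, adjusted p = 0.0312; 10.3% of genes called higher) and Lcn2 against ST-HSC (at least 264-fold, adjusted p = 0.033; 9.1% of genes called higher). The Lcn2 call against MEP was lost in 6 of 24 fits, without KO GMP 3, KO GMP 5 or any 1 KO MEP library (adjusted p = 0.0521 to 0.0742), and that against ST-HSC in 7 of 24, without KO GMP 3, 4 or 5 or any 1 KO ST-HSC library (adjusted p = 0.0539 to 0.0741). Against LT-HSC, CMP and CLP no KO member was called, where 9.22%, 1.83% and 5.17% of genes were called higher; 1 of the 4 in each had an unadjusted p under 0.05 there, and DESeq2 called 1 in each. In WT GMP against LT-HSC, S100a9, Ngp and Camp had log2 fold changes of -0.64, -3.61 and -1.05, none of them called.

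S100a8 in WT GMPs was 3.70 above LT-HSC (SE 1.98, adjusted p = 0.199), 3.96 above ST-HSC (SE 2.00, adjusted p = 0.178), 4.48 above CMP (SE 1.82, adjusted p = 0.193) and 3.98 above CLP (SE 1.78, adjusted p = 0.106) on the log2 scale, none of which passed. The ranges were nonetheless separate. In WT, every GMP library was above every library of each other population for S100a8, for Lcn2 and for Chil3. For S100a8 and Lcn2 the two-sided exact permutation test over libraries gave p = 0.0286 against CMP, MEP and CLP (4 against 4 libraries) and p = 0.0571 against LT-HSC and ST-HSC (4 against 3), the smallest p that these sizes allow. Over all genes tested, 24.1% were higher in every WT GMP library than in every LT-HSC library, 23.5% than in ST-HSC, 13.7% than in CMP, 22.7% than in MEP and 19.5% than in CLP, so that separate ranges are common here. In KO, S100a8 and Lcn2 were separate from each other population (exact p = 0.0286), except S100a8 from CLP, where KO CLP 3 reached into the GMP range (exact p = 0.114). Camp in KO GMPs (0.234 to 0.434 CPM) lay above CMP, MEP and CLP, where its highest value was 0.226, but not above LT-HSC or ST-HSC; like Chil3 it is given without a test. In KO the shares of all genes were 20.5% against LT-HSC, 20.6% against ST-HSC, 16.5% against CMP, 25.1% against MEP and 14.1% against CLP. S100a9 was separate only between WT GMP and CLP. These permutation tests between populations were added after the data were seen.

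The member calls turned on few libraries. Leaving out 1 library at a time gave 2 (without WT GMP 3 or WT GMP 5) to 6 called member results in WT and 1 (without KO GMP 3 or KO GMP 5) to 6 in KO, and without the CLP libraries, which share the fits' spread, the comparisons other than CLP gave 7 in place of 3 in WT and 6 in place of 3 in KO.

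Genes of the steps around the 8 members were taken from lists. Primary granule genes were at far higher levels in GMPs. Their 12 genes summed to 34545 to 48334 CPM in GMP libraries, 4606 to 6522 in CMPs, 306 to 588 in LT-HSCs and 116 to 286 in MEPs. Mpo, the peroxidase, was at 18703 to 26599 CPM and Elane, neutrophil elastase, at 7014 to 10316 in GMPs. Fcnb (ficolin B) passed the filter only through GMPs in both fits and is left out of the counts, as are such genes of the other lists. Of the other 11, in WT 10 were called higher in GMP than in LT-HSC, 9 than in ST-HSC, 1 than in CMP, 11 than in MEP and 9 than in CLP, and in KO 9, 8, 1, 11 and 3. None was called lower.

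The list of 20 other genes of secondary and tertiary granules and their stage was mixed. In WT, 13 passed the filter without GMPs, of which 4 were called higher in GMP than in LT-HSC, 4 than in ST-HSC, 3 than in CMP, 10 than in MEP and 7 than in CLP, where Cybb alone was called lower. In KO, 12 passed, and 5, 5, 1, 10 and 0 were called higher and none lower, with 2 at an unadjusted p under 0.05 against CLP. Hp (haptoglobin) was at 157 to 273 CPM in GMPs, 6.68 to 31.9 in CMPs and at most 0.0600 in LT-HSCs, and Cybb, the oxidase subunit of phagocytes, was at 40.0 to 83.3 in GMPs and at most 4.24 in CMPs. Lyz2 (lysozyme) went the other way, at 591 to 1053 CPM in LT-HSCs and 222 to 342 in GMPs, a difference that was not called in WT (log2 fold change -1.32, SE 0.71, adjusted p = 0.201). Cebpe, the transcription factor that granulocytes need to make secondary granules, was at 27.9 to 66.04 CPM in GMPs and 0.259 to 2.38 in CMPs, and was called higher in WT GMP than in each other WT population (against CMP log2 fold change 5.46, SE 1.37, adjusted p = 0.0284). In KO it was called against LT-HSC, ST-HSC and MEP but not CMP (adjusted p = 0.101) or CLP (adjusted p = 0.187).

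**Figure D4:**
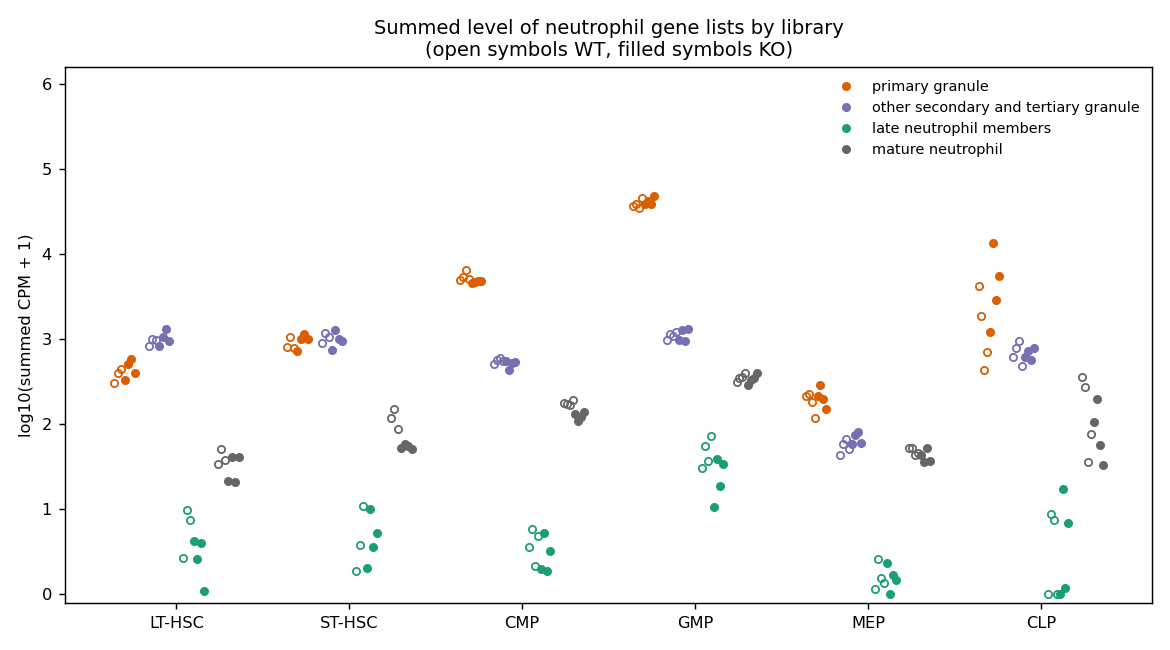
Summed level of 4 gene lists as log10(summed CPM + 1) by population, with 1 point per library (open, WT; filled, KO). In GMPs the 12 primary granule genes lie at 34545 CPM and above and the 8 late neutrophil genes between 9.61 and 71.5 CPM, while the sum of other secondary and tertiary granule genes overlaps between LT-HSC, ST-HSC and GMP, with Lyz2 alone at 591 to 1053 CPM in LT-HSC and 222 to 342 in GMP.

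Genes of mature neutrophils did not move as 1 group. The 16 genes summed to 291 to 396 CPM in GMPs, most of it from Hdc (histidine decarboxylase, 172 to 286 CPM), which basophils and their precursors also use, while Fpr1 and Fpr2, the formyl peptide receptors of mature neutrophils, had no counts in any of the 46 libraries, and Mmp9 was at the floor in all GMP libraries. In WT, 12 of 16 were tested, of which 6 were called higher in GMP than in LT-HSC, 2 than in ST-HSC, 0 than in CMP (1 at an unadjusted p under 0.05), 6 than in MEP and 4 than in CLP; Il1r2 was called lower than in ST-HSC and Mxd1 than in CLP. In KO, 12 were tested, and 3, 3, 0, 6 and 2 were called higher against the same populations in that order (1 at an unadjusted p under 0.05 against CMP), with Mxd1 alone called lower, than in CLP. Ly6g, the gene of the Gr1 antigen on neutrophils, was above the floor in 1 GMP library only, at 0.624 CPM (Ly6g, Mmp9, Fpr1, Fpr2 and Il1r2 were singled out after their values were seen). Of the marker lists of other cell types, 12 monocyte and macrophage genes summed to 1522 to 2217 CPM in GMPs and 633 to 3881 in CLPs, against 8.30 to 15.2 in MEPs, with C1qa and C1qb, named after their values were seen, at the floor in all CLP libraries. The 10 eosinophil and basophil genes summed to 125 to 370 CPM in GMPs, 121 to 509.9 in CMPs, 6.29 to 18.9 in MEPs, 0.220 to 12.4 in LT-HSCs and 132 to 3411 in CLPs. Of these, the basophil and mast cell proteases Mcpt8 and Cpa3 were called higher in GMP than in LT-HSC and MEP in both genotypes. Prg2, the major basic protein of eosinophil granules, was above the floor in 3 of 8 GMP libraries and at 0.209 to 948 CPM in CLPs, and was called lower in GMP than in CLP in both genotypes and than in LT-HSC in KO, but higher than in LT-HSC and ST-HSC in WT. Ear1 and Ear6, named because they were absent, were at the floor in all GMP and CLP libraries. The part of any of these cells in the members' levels was not tested.

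The library that held most S100a8 outside GMPs, KO CLP 3 (974 counts, 12.7 CPM), also had the highest primary granule sum outside GMPs (13577 CPM) and 1391 CPM of 6 megakaryocyte genes, and KO CLP 5, with 5.93 CPM of the members, had 5502 and 409 CPM of these lists. The other 6 CLP libraries had 430 to 4174 CPM of primary granule genes and 0.156 to 8.37 of megakaryocyte genes, and 2 of them, WT CLP 3 and 4, held 7.72 and 6.57 CPM of the members. The part of these lists in the CLP levels was not tested beyond the values given without the CLP libraries.

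By the likeness to the mean of the 8 members' levels over all 46 libraries, among 14009 genes, Cebpe ranked first (r = 0.851), followed by Prom1 (0.839), Celsr3 (0.831) and Cldn15 (0.830). Over the 38 libraries outside GMPs the first were Rlim (r = 0.676), Dhrs1 (0.667) and Itga2 (0.623), and after the group means were taken off, Hmgxb4 (0.682), Gm42798 (0.651) and P2rx1 (0.634). These are descriptions without a p, and the first follows the difference between GMPs and the rest.

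The genotypes were compared within each population, to ask whether the members differed between KO and WT progenitors. In 17 tests of members over the 6 populations edgeR's main fit called none, 1 had an unadjusted p under 0.05, and DESeq2 called 1. The alternative edgeR fit with the replicate number as a block called the same 1, with values given under the processing, though the numbers were not taken as pairs. That 1 was S100a8 in GMPs, with a mean of 12.002 ± 6.71 CPM in KO against 31.4 ± 16.3 in WT (SD, n = 4 each). Its log2 fold change was -1.42 (SE 0.47, adjusted p = 0.12 by edgeR). The ranges overlapped, since KO libraries 3 and 5 were above WT library 2, and the exact two-sided permutation test gave p = 0.0857. The mitochondrial share of counts moved with genotype too, at 4.74 to 5.09% in KO and 3.64 to 4.60% in WT GMPs, 7.85 to 8.37% and 5.94 to 6.57% in CMPs, and 8.82 to 14.5% and 8.02 to 9.50% in LT-HSCs, and its part in these differences was not tested. DESeq2, the study's tool, gave a call (log2 fold change -1.43, adjusted p = 0.0243). Of the 16563 genes tested in GMPs, 4.37% were called, 51 higher and 672 lower in KO. The other 4 members tested in GMPs showed smaller differences: Lcn2 -0.44 (SE 0.35, adjusted p = 0.611), S100a9 -0.77 (SE 1.13), Chil3 -0.13 (SE 1.14) and Camp 0.09 (SE 1.13), and their median with S100a8 was -0.44 against 0.03 over all genes.

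In CMPs the difference in S100a8 did not pass (1.41 ± 1.40 CPM in WT, 0.427 ± 0.271 in KO, SD, n = 4 each; log2 fold change -1.68, SE 0.83, adjusted p = 0.301; 4.57% of genes called). It rested on WT CMP 3, at 3.50 CPM, without which the log2 fold change was -0.72 (adjusted p = 0.744). In LT-HSCs, where 0.0245% of 16351 genes were called, S100a9 was at 1.19 ± 1.08 CPM in 3 WT libraries and 0.0595 ± 0.119 in 4 KO libraries (log2 fold change -3.81, SE 2.12, adjusted p = 0.998). All WT values were above all KO values, which 3.96% of all genes tested showed in this direction, and the exact permutation p was 0.0571, the smallest these sizes allow. Ngp was in 2 of 3 WT and 0 of 4 KO LT-HSC libraries and Camp in 2 of 3 and 1 of 4. The members tested in ST-HSC (4 of 8; 0.0185% of genes called), MEP (2 of 8; 4.36%) and CLP (1 of 8; 0.00766%) had adjusted p of 0.814 or more. S100a8 in CLP was the single case of a higher KO value for this gene (log2 fold change 0.98, SE 2.55). The higher KO mean rested on KO CLP 3, at 12.7 CPM. The other KO libraries, at 0, 0.178 and 2.94 CPM, lay within the WT range of 0 to 6.57.

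Whether the genotype difference varied with the population was tested in 1 model of all 46 libraries. No member was called by edgeR or DESeq2. In edgeR's main fit, with all 46 libraries and the low-count filter, none of the 6 tested had an unadjusted p under 0.05 (S100a8 adjusted p = 1, S100a9 0.979, Ngp 0.786, Camp 0.416, Lcn2 0.788, Chil3 0.586). No member had one in DESeq2 either, which was run without that filter. Of the 22360 genes tested, edgeR called 592. With no filter Retnlg had an unadjusted p of 0.0308 (adjusted p = 0.425), and without WT CLP 3 Lcn2 had one of 0.0481 (adjusted p = 0.341). Under edgeR's replicate block Camp had one of 0.0444 (adjusted p = 0.5). S100a8's difference in GMPs was 0.74 lower on the log2 scale than the mean of its differences in the other populations (adjusted p = 1), so a difference particular to GMPs was not shown.

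**Figure D5:**
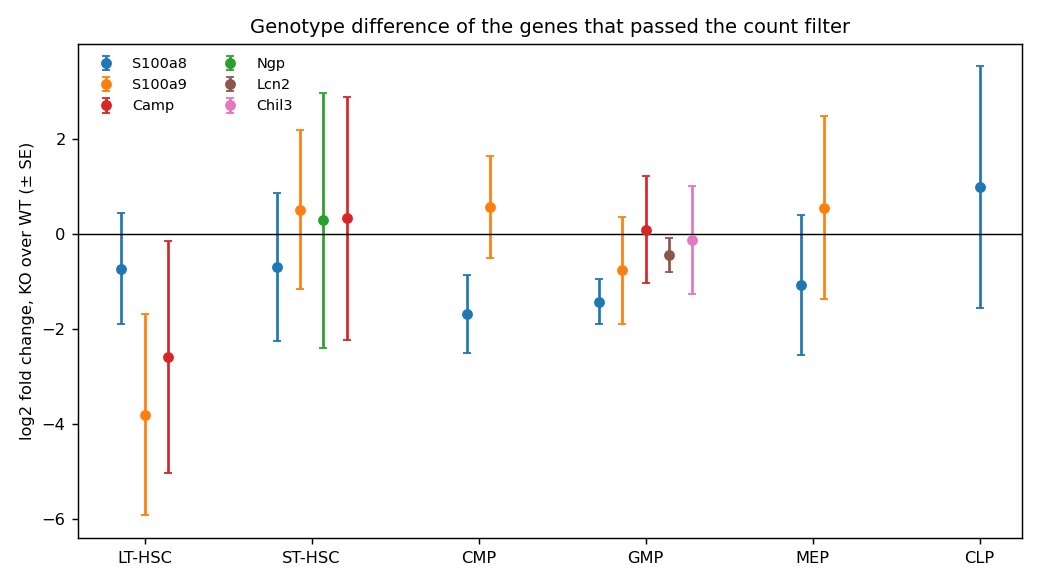
Log2 fold change of KO over WT with its standard error for each member that passed the filter on low counts, by population. Only S100a8 in GMP and CMP, S100a9 and Camp in LT-HSC and Lcn2 in GMP lie more than 1 SE from 0, and none passed the adjusted threshold.

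Among the neighbouring lists, none of the 12 primary granule genes and none of the 20 other secondary and tertiary granule genes was called between genotypes in any population, where 3 of 67 and 11 of 54 tests had an unadjusted p under 0.05. Of the 11 transcription factors, Spi1, which encodes PU.1, was called lower in KO in CMPs (log2 fold change -3.08, SE 0.19, adjusted p = 2.89e-05), GMPs (-2.61, SE 0.12, adjusted p = 1.19e-06) and MEPs (-3.45, SE 0.50, adjusted p = 0.003), and Gata2, a factor of early progenitors named here because of its call, was lower in CMPs and GMPs. Cebpe in GMPs was not called (-0.14, SE 0.23, adjusted p = 0.823). Mxd1, a Myc antagonist of maturing granulocytes on the mature neutrophil list, had lower KO levels by the test in CMPs (log2 fold change -1.83, adjusted p = 0.0106) and GMPs (-1.39, adjusted p = 0.00267), beside Il1r2 in CMPs and Trem1 in GMPs, both named because of their calls.

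The 6 granulocyte receptor genes summed to 555 to 756 CPM in GMPs and 84.0 to 148 in CMPs. In WT, 5 were called higher in GMP than in LT-HSC, 4 than in ST-HSC, 1 than in CMP, 6 than in MEP and 2 than in CLP, and in KO 5, 3, 1, 6 and 0 (2 at an unadjusted p under 0.05 against CLP), with none lower. Between genotypes Csf2ra, which encodes a chain of the GM-CSF receptor and is named because of its call, was called lower in KO GMPs (log2 fold change -1.51, SE 0.24, adjusted p = 0.0023), the single call of this list. Of the 6 megakaryocyte genes, 4 were tested in GMPs, and Itga2b, which encodes the integrin CD41, was called higher in KO (log2 fold change 1.12, SE 0.25, adjusted p = 0.0179). That list summed to 60.6, 57.9, 22.1 and 33.4 CPM in WT GMPs 2, 3, 4 and 5 and to 69.6, 26.0, 122 and 129 in the KO ones, so that KO GMP 3 lay within the WT range and the other 3 KO libraries above it. Its part in the S100a8 difference was not tested. The lists of monocyte and macrophage, eosinophil and basophil, erythroid, B cell, T and NK cell and stem cell genes had no call in GMPs, with 3, 0, 0, 1, 0 and 1 genes at an unadjusted p under 0.05.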

How the data were processed

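RNA of about 200 sorted cells per library was made into full-length mRNA libraries with a SMART-seq kit per the labels, while the methods give another cell number. Reads were cleaned (Trim Galore) and mapped to mm10 (HISAT2) by the authors, who deposited raw counts per gene that are not normalized; the counting program, its annotation and its use of strand are not given in the sources used here. Full-length libraries of so few cells are strongly amplified, and counts of a low gene can rest on few molecules. Each column was matched to its sample through its name, and none was left over.

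The 8 genes and 14 gene lists (149 genes) were chosen with earlier results of these data known. CPM were computed from the counts on TMM-scaled library sizes; 3 counts or fewer was taken as at the floor. The test was the quasi-likelihood fit of edgeR 4.0.16 (R 4.3.3, limma 3.58.1) after filterByExpr and TMM scaling, with a prior count of 2. A gene was called where its p, adjusted after Benjamini and Hochberg, was under 0.05 and its change at least 2-fold. DESeq2 1.42.0, RLE scaling, no filter, a replicate block, 1 fit of all libraries, exact permutations and leaving out each library were alternatives. The pipeline was tested on simulated data: of 4-fold changes in GMPs by genotype it recovered 133 of 190 (70%), in LT-HSCs 72 of 188 (38.3%), and in WT GMP against CMP 37 of 193 (19.2%). The changed genes were drawn at random from all genes that passed the filter. These shares therefore do not give the power to call a member near the floor. Replicates are libraries of separate mice by the study's account; the labels do not say so, and otherwise p-values measure only the spread between libraries. Named beyond the members and Tet2 are up to 4 genes of highest mean CPM per list and the 10 genes most like the members by Pearson's r; others are said to have been chosen after their values were seen. Of 55421 gene IDs 55154 were found in vM21. Columns of a second table, with 9 LT-HSC libraries, were kept apart. Plots used matplotlib 3.10.9, with pandas 2.3.3, numpy 2.4.6 and scipy 1.17.1 in Python 3.11.15.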

Additional observations from a re-analysis of the deposited data

Results flagged for a closer look

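In 17 of 46 sets of 4 libraries of 1 group in which a late neutrophil gene was detected, the highest library lay apart from the other 3 by more of the whole range than Dixon's 95% value for 4 libraries, where chance gives about 1 in 20 for evenly measured values. That share does not apply to 15 of the 17, in which the other 3 libraries were at 0, so that 1 library with counts fills the whole range by construction. These 17 cases fall in 9 libraries, 7 of them with the replicate number 3, and WT CMP 3 alone gives 4 cases. What a shared number stands for is not given in the sources used here, and its part in these levels was not tested. Among S100a8 and S100a9 the libraries apart were WT CMP 3 for S100a8 (3.50 CPM) and KO LT-HSC 3 for S100a9 (0.238 CPM). For Chil3 they were KO LT-HSC 3 (0.0595), WT CMP 3 (0.0636), KO CMP 3 (1.69), KO GMP 3 (2.83) and WT MEP 3 (0.0544). For Camp they were KO LT-HSC 3 (0.357) and KO ST-HSC 3 (1.69), for Retnlg WT CMP 3 (0.0509) and KO GMP 3 (0.128), and for Ltf WT MEP 3 (0.0952). For Lcn2 they were KO LT-HSC 2 (1.53), KO CMP 3 (0.795) and WT CLP 3 (6.15), and for Ngp WT CMP 3 (0.865) and WT GMP 5 (0.236). The 2 with other values above 0 are S100a8 in WT CMP 3 and Chil3 in KO GMP 3.

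A second table, outside the comparisons above, holds 9 further LT-HSC libraries, 3 each labelled WT, StingKO and DKO (the double knockout of Tet2 and Sting by the study's methods). In double knockout library 2, S100a8 was at 79.065 CPM (6221 counts), above every GMP library of the first table, while the other double knockout libraries had 0 and 2 counts, the StingKO libraries 6, 2 and 4 counts (0.107, 0.0492 and 0.0637 CPM) and the WT libraries 119, 5 and 178 counts (3.41, 0.155 and 6.65 CPM). S100a9 had 2 counts in that library, and Lcn2, Ltf, Chil3 and Retnlg had none in any of the 9. CPM here are on unscaled totals, and the tables were made separately, so levels across them are set side by side only.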

How the results depend on the processing

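Depth and library number are limits: most members rest on few counts in a few libraries, and a fold against a group at 0 is known only as a bound on counts. Of 47 single member results followed, RLE scaling kept direction and side of the threshold in 47, no low-count filter in 46 and the replicate block in 41. DESeq2 kept 39 and called 8 more, while the exact permutation, which between populations was chosen after seeing the data, has another threshold, an unadjusted p under 0.05 with no fold, by which 30 were on the same side and 15 not called before were below it. Without the CLP libraries 22 were kept and 7 more were called. Under the replicate block S100a8 in ST-HSC turned to 0.19 and S100a9 in ST-HSC to -1.002 (log2, KO over WT), and Camp in KO GMP over ST-HSC to 1.42; by the exact permutation on log2(CPM + 1) that Camp difference was 0.0457. The cause was not tested. Correlations of the deviations of libraries with the same number were -0.04 to 0.098 between genotypes (0 of 22 over 0.1), at most 0.147 between populations of WT (4 of 51 over 0.1) and at most 0.244 between those of KO (14 of 60). As not every pair was over 0.1, the numbers were not taken as pairs, though some same-numbered KO libraries deviated together. Low correlations cannot show that same-numbered libraries of a genotype came from different mice. The fits and permutations between populations treat these libraries as independent. The block gave 2 called genes in LT-HSC and 0 in CLP, called 1 member between genotypes (S100a8 in GMP, -1.47, adjusted p = 0.00149) and 5 in KO GMP comparisons (3 for members that pass the filter without GMPs). S100a8 in GMPs stood in the same order by number in both genotypes, with WT over KO at 3.32, 2.55, 2.45 and 2.59 for numbers 2, 3, 4 and 5. Lcn2 in WT GMP against LT-HSC lost its call without the low-count filter (adjusted p = 0.055), under the block (0.0569) and in 9 of 22 fits that left out 1 library.

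DESeq2 called more genes by genotype in LT-HSC (233), ST-HSC (332), CMP (1234), MEP (1045) and CLP (472), 1442 in WT GMP against CMP, and in KO GMP 4854 against LT-HSC, 4728 against ST-HSC, 1706 against CMP, 4578 against MEP and 3580 against CLP. It called 9 member results in WT, 12 in KO (8 and 7 for members that pass the filter without GMPs, against 4 and 3 by edgeR) and 1 between genotypes, and 1390 genes in the test across populations. In that test the block gave Camp an unadjusted p of 0.0444 (adjusted p = 0.5), and the stem cell libraries were not left out one by one. One fit of all 46 libraries called 20 genes in LT-HSC, 21 in ST-HSC, 285 in CMP, 219 in GMP, 423 in MEP and 1477 in CLP. Without the CLP libraries, chosen after seeing the data, WT GMP gave 5339 calls against LT-HSC, 5300 against ST-HSC, 1694 against CMP and 4511 against MEP, and KO GMP 5091, 4999, 1674 and 4617; members gave 7 in WT and 6 in KO. RLE scaling gave 2024 higher and 1696 lower genes in WT GMP against CLP (2581 and 1403 with TMM) and 787 and 1047 in KO (1003 and 883), where the median log2 difference of all genes went from 0.34 to 0.12 in WT and from 0.17 to 0 in KO; against LT-HSC in KO it went from 0 to -0.11. With no filter KO GMP gave 190 higher and 209 lower against CMP (356 and 242 with it) and 656 and 777 against CLP.

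Leaving out 1 library at a time gave 0 to 1 calls in CLP, 387 (without WT GMP 5) to 889 (without WT CLP 4) in WT GMP against CMP, 233 (without KO GMP 3) to 1050 (without KO CLP 2) in KO, and 1248 (without KO GMP 5) to 2622 (without KO CLP 3) in KO GMP against CLP. Members gave 2 (without WT GMP 3 or 5) to 6 (without WT CLP 3) in WT and 1 (without KO GMP 3 or 5) to 6 in KO, and the S100a8 per S100a9 ratio in LT-HSC 2.82 to 6.73. Log2 values that turned ranged for KO over WT from -1.34 to 0.18 (S100a8, LT-HSC), -1.27 to 0.89 (S100a8, ST-HSC), -0.97 to 1.07 (S100a9, ST-HSC), -0.30 to 1.04 (Camp, GMP) and -2.02 to 0.28 (Chil3, GMP), from -1.11 to 0.39 for S100a9 in WT GMP over LT-HSC and from -0.72 to 3.82 for Camp in KO GMP over ST-HSC.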

Other observations

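Detection of the members also varied with the replicate number across populations. Ngp was above the floor in 0 of 12 libraries numbered 2, 4 of 12 numbered 3, 1 of 10 numbered 4 and 6 of 12 numbered 5. Chil3 was above it in 2, 7, 1 and 3 of these libraries, and Camp in 5, 5, 1 and 6. S100a9 was spread more evenly, in 6, 9, 6 and 8. These counts were made after the values were seen and have no test.

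Taken singly, and chosen after their values were seen, the members had different nearest genes over the 46 libraries. Lcn2 was most like Cebpe (r = 0.928), S100a8 most like Hlx (0.855), with Cebpe the third (0.846), S100a9 most like Gm45706 (0.649) and Ngp most like Gm16758 (0.686).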
